A study of Mus musculus with 14 samples.

Results

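Ankyrins, proteins of the Epb4.1 family and node of Ranvier components were described here as 10 genes, taken by symbol from both RNA-seq gene tables out of 19215 genes. The ankyrins were Ank1, Ank2 and Ank3. The Epb4.1 family members were Epb4.1, Epb4.1l1, Epb4.1l2 and Epb4.1l3. The cell adhesion molecules of the axon were Nfasc, Nrcam and Cntnap1. Their cassette exons, which are included in or skipped from the mature RNA, were found by the same gene identifier, and 46 of 13189 exon records in the splicing tables belonged to them. These records covered 43 distinct exons in 9 of the genes, and Cntnap1 had none.

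Ankyrins are adaptors that tie membrane proteins to the spectrin and actin skeleton beneath the plasma membrane. Proteins of the Epb4.1 family join the same skeleton to other membrane partners. At the axon initial segment and the node of Ranvier, ankyrin-G (encoded by Ank3) gathers sodium channels together with the adhesion molecules neurofascin (Nfasc) and NrCAM (Nrcam), while Caspr (Cntnap1) marks the paranodal junction beside the node. NOVA1 and NOVA2 are neuronal RNA-binding proteins that bind YCAY tetramers, where Y is C or U, and regulate alternative splicing.

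The study asked how RNA regulation by NOVA in spinal motoneurons (MNs) differs from that in the whole spinal cord (WSC). HITS-CLIP, which crosslinks a protein to its RNA with UV light and sequences the bound fragments, was made from C57BL/6 mice of 3 months in 12 libraries. In 8 of them, 4 each of the hemizygous Chat:GFP-Nova lines 6 and 17, an anti-GFP precipitation recovered AcGFP-tagged NOVA2 made from a bacterial artificial chromosome (BAC) with the Chat promoter, so that the tagged protein was made in MNs, and each library pooled the spinal cords of several mice. In the other 4, a human anti-NOVA serum recovered the endogenous NOVA proteins of wild-type WSC. The RNA-seq came from whole spinal cords of B6/SJL mice of 12 weeks that carried the human wild-type SOD1 transgene Tg(SOD1)2Gur/J, in 2 poly(A) libraries, 1 from a male and 1 from a female. No RNA-seq of MNs and no RNA-seq library without the transgene was analysed here. Line 6 and line 17 were separate transgenic lines made with the same recombinant BAC.

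The RNA-seq libraries held 72006019 reads on genes in the male and 65625173 in the female. The CLIP libraries held 65961 to 871804 unique reads in MNs and 2213104 to 6095995 in WSC, so values in MNs rested on far fewer reads. Reads on genes that lay outside annotated exons made up 52.7% to 65.4% in the 8 MN libraries and 33.9% to 39.1% in the 4 WSC libraries, and these ranges did not overlap. All CLIP libraries were made from spinal cord. Tagged protein or endogenous protein, antibody, genotype, pooling and the cell type that made the precipitated protein all went with this contrast and cannot be told apart. The MN reads carried the marks of their labels: CLIP reads on Slc5a7, the choline transporter of cholinergic neurons, were higher in MNs by 2.24 on the log2 scale (edgeR quasi-likelihood test, adjusted p = 1.1e-11), and the 3 tested astrocyte markers of 4 (Gfap, Aqp4 and Slc1a2) were all lower. Chat itself was higher by 3.08, but its promoter region lies on the transgene. Mbp, a myelin protein of oligodendrocytes, was not called, and Pmp22, a myelin protein of Schwann cells, was higher by 1.79.

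Short cassette exons are common in genes of neurons, and 5 of the exons were at most 30 nt long, in Ank1, Ank3, Nfasc and Nrcam. They are shown because of this length, and the length of each is a multiple of 3. Of all exons placed on the genome with at least 10 junction reads in each library, 4.5% were as short. The exons of Ank1, Nfasc and Nrcam are annotated as coding, and that of Ank3 is not annotated. All sequences are from the NCBIM37 (mm9) reference genome, 5′ to 3′ on the strand of the gene, with the exon in capitals and 40 nt of intron on either side in lower case.
Ank1 24-nt exon, chr8:24220779-24220882, plus strand: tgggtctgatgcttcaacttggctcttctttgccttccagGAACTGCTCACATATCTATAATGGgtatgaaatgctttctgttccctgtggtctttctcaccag
Ank3 27-nt exon, chr10:69443532-69443638, plus strand: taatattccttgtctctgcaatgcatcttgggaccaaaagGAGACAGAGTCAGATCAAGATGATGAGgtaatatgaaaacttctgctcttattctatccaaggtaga
Nfasc 18-nt exon, chr1:134534401-134534498, minus strand: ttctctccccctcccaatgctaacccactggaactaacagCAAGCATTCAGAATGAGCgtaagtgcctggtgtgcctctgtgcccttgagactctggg
Nrcam 18-nt exon, chr12:45636004-45636101, plus strand: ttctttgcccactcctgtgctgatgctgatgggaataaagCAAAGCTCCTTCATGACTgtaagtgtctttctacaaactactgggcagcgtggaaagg
Nrcam 30-nt exon, chr12:45667787-45667896, plus strand: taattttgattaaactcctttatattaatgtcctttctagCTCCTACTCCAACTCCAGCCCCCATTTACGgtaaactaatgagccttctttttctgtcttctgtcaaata

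Ank2, which encodes ankyrin-B, had exons at both ends of the range of inclusion among those with at least 100 junction reads in each library. The upper end of 100% was shared with the 144-nt exon of Nrcam and with 1 record of the 125-nt exon of Ank1, and the exon with the most junction reads is shown. They are printed with the exon in capitals and 10 nt of intron on either side. The first exon was never skipped in the reads of either library, and the second was never included. Neither the GENCODE annotation used here nor any junction read of the 2 libraries held the second exon.
Ank2 126-nt exon, chr3:126657892-126658037, minus strand: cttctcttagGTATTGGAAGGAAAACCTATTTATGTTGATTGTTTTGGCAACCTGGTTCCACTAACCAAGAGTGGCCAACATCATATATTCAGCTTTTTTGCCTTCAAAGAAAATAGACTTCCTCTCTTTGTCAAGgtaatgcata
Ank2 105-nt exon, chr3:126643376-126643500, minus strand: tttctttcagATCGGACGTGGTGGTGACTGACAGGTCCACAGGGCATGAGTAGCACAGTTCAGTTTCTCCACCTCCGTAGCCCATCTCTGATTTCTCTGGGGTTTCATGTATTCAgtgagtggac
All 43 exons had AG at the end of the upstream intron and GT at the start of the downstream intron, as did 99.8% of all exons placed on the genome.

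The genes were strongly expressed in the whole spinal cord. Levels are the deposited RPKM values (reads on a gene over its exon length and over the library's reads on genes), in the male and then the female library. The highest member was Epb4.1l3 (chr17:69506150-69639325), a membrane skeleton protein of neurons and glia, at 136 and 142 RPKM. Ank2 (chr3:126624525-127111949) had 80.2 and 75.4 RPKM. Epb4.1l1 (chr2:156246645-156368950), the main neuronal form of the family, had 73.8 and 64.9 RPKM. After these 3 genes came Nfasc and Cntnap1, the pair that marks the node and the paranode. Nfasc (chr1:134461268-134638374) had 66.0 and 54.9 RPKM, which overlapped the values of Epb4.1l1. Cntnap1 (chr11:101031837-101052038) had 54.9 and 48.4 RPKM. Nrcam (chr12:45429872-45702951) had 45.6 and 43.5 RPKM. Its values overlapped those of Ank1, which is best known as the ankyrin of red blood cells and is also made in neurons: Ank1 (chr8:24085316-24260969) had 46.3 and 38.6 RPKM. Ank3 (chr10:68996970-69490184) had 32.0 and 29.7 RPKM. Epb4.1l2 (chr10:25079604-25243320) had 29.4 and 29.9 RPKM and overlapped Ank3. The lowest was Epb4.1 (chr4:131479328-131631236), the founding member of the family and a major protein of the red cell skeleton, at 8.16 and 7.79 RPKM.

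**Figure D1:**
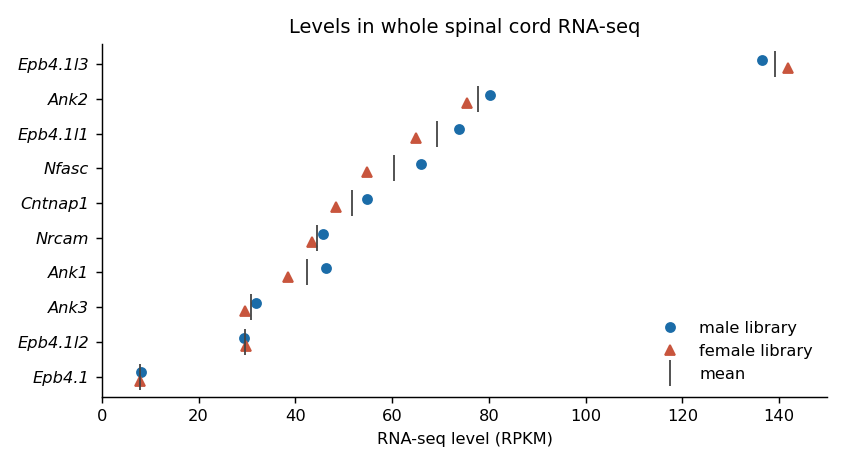
RNA level of each gene in whole spinal cord, with RPKM on the horizontal axis, a circle for the male library, a triangle for the female library and a vertical mark for their mean. Epb4.1l3 stood highest at a mean of 139 ± 3.83 RPKM and Epb4.1 lowest at 7.97 ± 0.260 RPKM (SD, n = 2).

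The median of the 10 genes was 48.1 RPKM against 10.3 RPKM for the 11940 genes with a mean of at least 1 RPKM, and 9 of the 10 lay between the 84.1st and 97.6th percentile of all detected genes, while Epb4.1 lay at the 54.3rd. No member differed by more than 1.5-fold between the 2 libraries, where 3.92% of all genes did. With 1 library of each sex there was no test of this difference. For 8 of the 10 genes the male library had the higher level. The log2 difference of male over female reached 0.27 for Nfasc and 0.26 for Ank1 and was -0.06 for Epb4.1l3, with a median of 0.10 over the members and 0.01 over all genes. Beside this, the summed level of 4 erythroid markers was 97.0 RPKM in the male and 39.4 RPKM in the female library, with Hbb-b1 at 85.5 and 35.1 RPKM and Hba-a1 and Slc4a1 under 1 RPKM in both. The 5 motoneuron markers summed to 62.7 RPKM in the male and 88.0 RPKM in the female. The widest gap was that of Slc5a7, at 28.0 and 46.9 RPKM. Slc18a3 had 24.0 and 28.2 RPKM and Chat 9.20 and 10.4 RPKM. Mnx1 had 0.935 and 1.92 RPKM and Isl1 0.647 and 0.663 RPKM. The part of blood and of MN content in the differences of Ank1, Epb4.1 or any other member was not tested. In whole tissue, fewer cells of a type and less RNA per cell cannot be told apart.

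Other genes of the node, the axon initial segment and the spectrin skeleton gave the setting: 49 of 50 listed genes were in the tables and 46 had a mean of at least 1 RPKM, with a median of 27.0 RPKM over the list. None of the 46 passed 1.5-fold between the libraries. Sptan1 (alpha-II spectrin), a partner of the Epb4.1 family, was the highest of them at 206 and 204 RPKM.

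Many of the cassette exons were included at intermediate rates. The inclusion rate is the mean of both inclusion junction counts over that mean plus the skipping junction count. Of the 46 records, 44 had at least 10 junction reads in each library, as had 9396 of all 13189. Among the 44, 17 were included over 90%, 22 between 10% and 90% and 5 under 10%, against 54.2%, 27.4% and 18.4% of all exons. The median was 74.7% for the members and 93.5% for all. In 40 of the 44 the exon length was a multiple of 3, compared with 47.3% of all exons that could be placed, and 33 of the 44 were annotated as wholly coding. Both records left out, a 168-nt and a 54-nt exon of Epb4.1l2, had 3 to 16 junction reads a library. Some records describe 1 exon with different neighbours and therefore share reads.

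Among the ankyrins, the 24-nt exon of Ank1 was nearly always included, at 92.5% in the male and 96.5% in the female library. A 375-nt coding exon of Ank1 was at 68.7% and 67.1%, while a 117-nt exon with no coding annotation was at 0% and 0.529%. A 125-nt exon of Ank1, partly coding, was at 99.6% and 100% in 1 record and at 100% in both libraries in the other. Ank2 had a coding exon of 183 nt at 70.0% and 72.7% and a coding exon of 99 nt at 38.7% and 28.4%. The 3 exons of Ank3 were all seldom or sometimes used: the 27-nt exon printed above was at 36.0% and 36.3%, a 63-nt coding exon at 16.1% and 19.7%, and a 33-nt exon without annotation at 0.493% and 0.725%.

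In the Epb4.1 family the exons spread widely. Epb4.1l1, Epb4.1l2 and Epb4.1l3 had exons near full inclusion, such as the 84-nt exon of Epb4.1l1 at 99.4% and 100%, the 123-nt exon of Epb4.1l2 at 100% in both libraries and the 54-nt exon of Epb4.1l3 at 99.6% and 99.4%. The 36-nt exon of Epb4.1l1 was at 92.2% and 93.1%, its 408-nt exon at 96.3% and 92.8%, its 87-nt exon at 80.8% and 78.9% and its 49-nt exon at 100% in both on 11 and 25 junction reads. In Epb4.1l3 the 36-nt exon was at 87.3% and 85.5%, the 123-nt exon at 91.3% and 95.01% and the 117-nt exon at 88.8% in both. A 315-nt exon of Epb4.1l2 was at 40.7% and 45.5%, and a 528-nt exon of Epb4.1l3 at 8.32% and 6.53%. The 75-nt exon of Epb4.1l3 (chr17:69630373-69630447), which is not in the GENCODE annotation used here, was at 44.7% (Wilson 95% interval 41.1% to 48.3%) and 52.2% (48.1% to 56.2%). These intervals cover counting error only. Epb4.1, the least expressed gene, had few junction reads on its exons. Its 63-nt exon was at 47.9% and 30.4%, its 450-nt exon at 2.22% and 22.2% with 23 and 11 junction reads, and its 81-nt exon at 0% in both. Its 42-nt and 57-nt exons have 2 records each: 73.6% and 100% or 100% in both for the first, and 53.3% and 100% or 92.2% and 100% for the second, on 18 to 68 junction reads a library.

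The adhesion molecules used several exons at intermediate rates at once. In Nfasc the 18-nt exon was at 42.5% and 39.7%, the 51-nt exon at 42.5% and 32.7% and the 45-nt exon at 53.7% and 32.8%. A 237-nt exon of Nfasc was at 100% in both, and a 109-nt exon without coding annotation at 91.6% and 96.1%. In Nrcam the 18-nt exon was at 45.0% and 50.6%, the 30-nt exon at 58.9% and 67.6% and the 36-nt exon at 42.7% and 31.6%. Its 57-nt exon was mostly included, at 94.6% and 91.7%, and its 144-nt exon always. The 66-nt exon, which is not annotated, was at 12.7% and 8.99%.

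**Figure D2:**
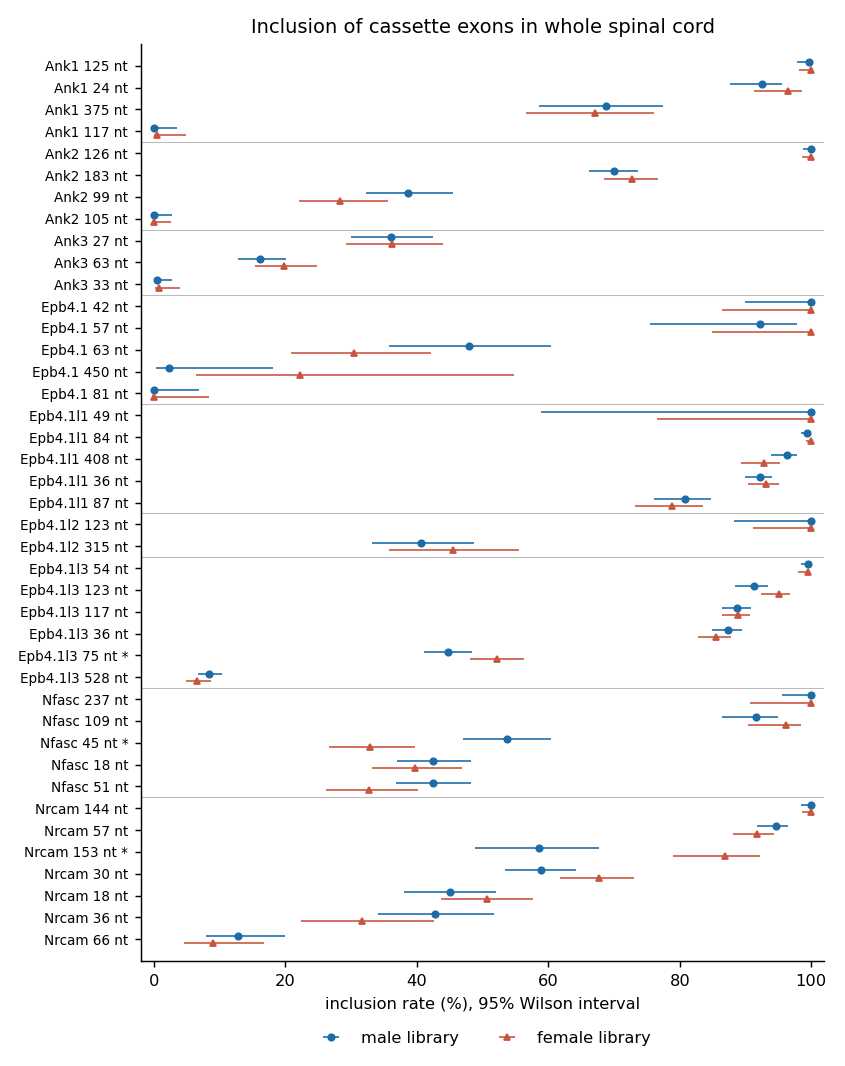
Inclusion rate in percent of the 41 distinct cassette exons with at least 10 junction reads in each library, grouped by gene and labelled by length, with a circle for the male library, a triangle for the female library and bars for the Wilson 95% interval. Asterisks mark the 3 exons called between the 2 libraries, such as the 45-nt exon of Nfasc at 53.7% and 32.8%.

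Between the 2 libraries 3 of the 44 records passed an FDR of 0.1 in a two-sided Fisher's exact test, where 4.26% of all 9396 exons did. The test used the authors' inclusion counts, which add reads in the exon body, and not the junction rates printed here. With junction reads only, 3 member records and 310 of all 9396 exons were called. The test compares these 2 libraries and not the sexes. The 45-nt exon of Nfasc was more included in the male library (53.7% against 32.8%, Fisher's exact test with Benjamini-Hochberg adjustment, adjusted p = 0.000477). The 153-nt exon of Nrcam was less included in the male (58.6% against 86.9%, exact test, adjusted p = 0.0016), and its inclusion reads lay on 1 of the 2 junctions only, with 119 in the male and 173 in the female against 0 on the other. The 75-nt exon of Epb4.1l3 was also less included in the male (44.7% against 52.2%, exact test, adjusted p = 0.0234). The median absolute difference between the libraries was 2.72 percentage points over the members and 1.08 over all exons. These medians were not matched for inclusion rate, and 22 of the 44 member records but 27.4% of all exons lay between 10% and 90%. By the exact test 11 members and 1157 of all exons had an unadjusted p under 0.05. Reads on 1 inclusion junction only, in both libraries, were also seen at a 57-nt exon record of Epb4.1 and at the 66-nt exon of Nrcam. Other records were nearly as uneven. The 87-nt exon of Epb4.1l1 had 517 and 4 reads on its 2 inclusion junctions in the male and 373 and 0 in the female. The 63-nt exon of Epb4.1 had 7 and 50 in the male and 0 and 42 in the female. A record of the 42-nt exon of Epb4.1 and of the 125-nt exon of Ank1 were uneven too. Rates of such records average a used and a little used junction.

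NOVA CLIP reads on the genes differed between MNs and WSC in both directions. The values are reads on the strand of the gene scaled to the TMM-adjusted library size, as counts per 1e6 (CPM), and the test was the edgeR quasi-likelihood test with Benjamini-Hochberg adjustment over 4578 genes at an FDR of 0.01. Of the 10 genes 3 were higher in MNs and 4 lower, while 28.1% of all tested genes were higher and 29% lower. Nothing is read from these counts about the 10 genes as a set. The median log2 difference was 0.10 over the members and -0.02 over all genes. A higher CPM means more crosslinked reads of the RNA, which depends on its amount in the cells as well as on binding.

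Among the ankyrins, Ank1 and Ank3 were lower in MNs. Ank1 ranged from 21.4 to 211 CPM in the 8 MN libraries with a median of 113, on 1 to 62 reads, and was 301, 344, 319 and 334 CPM in the 4 WSC libraries. Every MN library lay below every WSC library, and the log2 difference was -1.54 ± 0.14 (SE, edgeR, adjusted p = 6.5e-10). For Ank3 the MN libraries ran from 1090 to 1495 CPM with a median of 1199, and the WSC libraries had 1968, 2007, 1791 and 1926 CPM. These groups did not overlap either, and the log2 difference was -0.66 ± 0.10 (edgeR, adjusted p = 2.2e-06). Ank2 had 1410 to 2451 CPM with a median of 2261 in MNs, and 1773, 1731, 1727 and 1940 CPM in WSC. The lowest MN library lay below all WSC libraries and 7 of 8 above them, and the log2 difference of 0.27 ± 0.11 did not pass (edgeR, adjusted p = 0.033). It passed without replicate 1 of line 17, which had 66 reads on Ank2 (0.33, adjusted p = 0.0026), with DESeq2 (0.24, adjusted p = 0.0095) and with the libraries of 1 flow cell (0.36, adjusted p = 0.0044).

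In the Epb4.1 family, Epb4.1l1 was lower and Epb4.1 higher in MNs. Epb4.1l1 ran from 515 to 877 CPM in MNs with a median of 600.3, and was 1397, 1393, 1255 and 1516 CPM in WSC. The groups did not overlap, and the log2 difference was -1.19 ± 0.11 (edgeR, adjusted p = 1.1e-09). Epb4.1 ran from 171 to 484 CPM in MNs with a median of 437, and was 271, 269, 260.0 and 260.5 CPM in WSC. All MN libraries but replicate 1 of line 17, with 8 reads, lay above WSC, and the log2 difference was 0.68 ± 0.11 (edgeR, adjusted p = 4.2e-06). Epb4.1l3 and Epb4.1l2 were not called. Epb4.1l3 had 833 to 1434 CPM in MNs and 1026 to 1227 CPM in WSC, with a log2 difference of 0.11 (95% interval -0.11 to 0.32). Epb4.1l2 had 32.2 to 107 CPM in MNs and 53.9 to 63.7 CPM in WSC, with a log2 difference of 0.09 (95% interval -0.30 to 0.47).

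The adhesion molecules also split. Nfasc ran from 471 to 1032 CPM in MNs with a median of 743, and was 538, 532, 517 and 530.3 CPM in WSC. In 7 of 8 MN libraries it lay above WSC, and the log2 difference was 0.49 ± 0.10 (edgeR, adjusted p = 0.00018). Nrcam ran from 722 to 910 CPM in MNs with a median of 785, and was 563, 599.8, 567 and 589 CPM in WSC. Its groups did not overlap, and the log2 difference was 0.42 ± 0.09 (edgeR, adjusted p = 0.00017). Cntnap1 had few reads in MNs, 2 to 25 a library. It ran from 32.5 to 128 CPM there with a median of 43.4, and was 120, 114, 103 and 110 CPM in WSC. Replicate 1 of line 17, with 6 reads, lay above the WSC range and the other 7 below it, and the log2 difference was -1.32 ± 0.19 (edgeR, adjusted p = 7.2e-07).

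**Figure D3:**
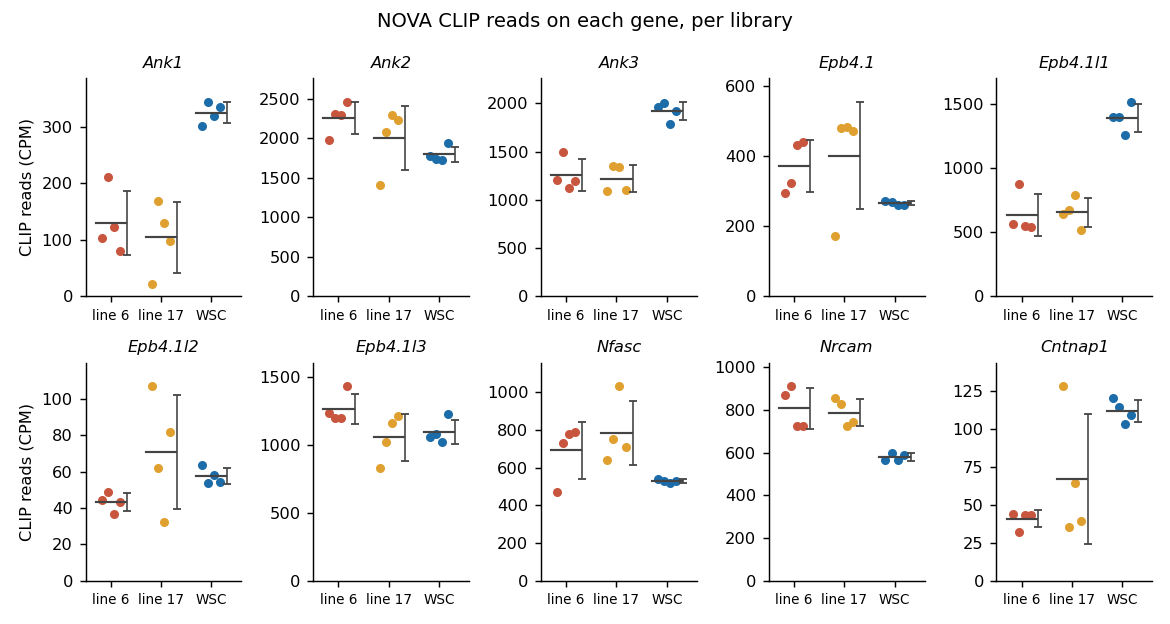
NOVA CLIP reads on each gene in CPM, 1 panel a gene with its own axis from 0, with 1 point for each library of line 6, line 17 and WSC, a line for the mean and a bar for the SD (n = 4). Ank1, Ank3, Epb4.1l1 and Cntnap1 stood lower in both lines than in WSC, and Epb4.1, Nfasc and Nrcam higher.

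The position of the reads moved with the contrast. On every member a larger share of reads lay outside annotated exons in MNs than in WSC: 60.0% against 19.6% on Ank1, 71.7% against 43.9% on Ank2, 83.6% against 54.3% on Nrcam and 10.4% against 3.4% on Epb4.1l1. The smallest gap was on Epb4.1, at 94.8% against 93.0%. When only reads outside exons were counted, 9 of the 10 genes could be tested, Cntnap1 could not, and 1 gene was higher and 2 lower, where 12.7% of 2758 genes were higher and 14.5% lower. This alternative was chosen after the data had been seen. Ank3 (-1.04, edgeR, adjusted p = 5.0e-11) and Ank1 (-0.77, adjusted p = 0.00066) stayed lower. Epb4.1l3 became higher (0.47, adjusted p = 9.6e-05). Nfasc (-0.02, adjusted p = 0.997) and Epb4.1 (-0.13, adjusted p = 0.31) changed sign and were not called, and Nrcam (0.20, adjusted p = 0.066) and Epb4.1l1 (-0.49, adjusted p = 0.035) lost their calls. Nrcam also lost its call with line 17 alone (adjusted p = 0.015), with 10 kb added downstream of each gene (adjusted p = 0.037) and without a filter on low counts (0.16, adjusted p = 0.33). Nfasc lost its call without that filter too (0.22, adjusted p = 0.14).

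The lines did not differ on these genes by this test. Between line 6 and line 17, 8 of the genes had enough reads, Epb4.1l2 and Cntnap1 did not, and the log2 differences ran from -0.16 to 0.21 with 95% intervals reaching from -0.62 to 0.85. The edgeR quasi-likelihood test called 0 of 2086 genes (0%), with 73 at an unadjusted p under 0.05, and DESeq2 called 0 with 44 at an unadjusted p under 0.05. With the replicate number as a block, the edgeR test called 0 of 2550 genes, with 190 at an unadjusted p under 0.05. 

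Among the listed partners of the node and the spectrin skeleton, 38 of 50 could be tested on CLIP reads, 13 were higher and 10 lower in MNs, with a median of 0.08, beside 28.1% higher and 29% lower among all tested genes. Nothing is read from these counts about the list. The 5 with the largest change were all lower: Scn2b (-2.31), Scn4b (-1.25), both beta subunits of sodium channels, Dlg4 (-1.41), the scaffold PSD-95, Sptb (-1.37), the beta spectrin of red cells, and Kcnab2 (-1.24), a potassium channel subunit of the juxtaparanode. Of these 5, Kcnab2 alone had enough reads outside exons to be tested there, and its difference turned to 0.27 (edgeR, adjusted p = 0.30).

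CLIP reads around the cassette exons, relative to all CLIP reads of the same gene, were then compared between MNs and WSC. A window was the exon and 400 nt on either side. Of the 43 windows 32 had enough reads, and 8 were higher and 1 lower in MNs at an FDR of 0.1 (edgeR quasi-likelihood test with the gene's own reads as offset), where 15.5% of 1198 windows were higher and 6.76% lower. The median log2 difference was 0.73 over the 32 windows and 0.24 over all. Windows of the 42-nt and the 57-nt exon of Epb4.1 overlap, and neither was called. The stretches that follow are 121 nt long and hold the most reads of the window in the class with the higher share, which was MNs except for the 117-nt exon of Epb4.1l3. They are shown because these windows passed the test, with YCAY (TCAT or TCAC, and CCAT or CCAC, on the strand of the gene only) in capitals.
Epb4.1l1 36-nt exon, chr2:156337598-156337718, plus strand: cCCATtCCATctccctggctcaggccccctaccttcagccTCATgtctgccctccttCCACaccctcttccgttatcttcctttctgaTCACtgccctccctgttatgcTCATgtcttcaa
Ank2 99-nt exon, chr3:126666142-126666262, minus strand: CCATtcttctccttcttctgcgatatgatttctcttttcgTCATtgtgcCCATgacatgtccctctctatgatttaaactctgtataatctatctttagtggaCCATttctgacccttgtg
Ank2 183-nt exon, chr3:126631437-126631557, minus strand: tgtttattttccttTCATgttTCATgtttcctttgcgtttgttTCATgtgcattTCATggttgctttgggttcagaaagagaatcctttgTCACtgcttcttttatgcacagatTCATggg
Nrcam 66-nt exon, chr12:45695323-45695443, plus strand: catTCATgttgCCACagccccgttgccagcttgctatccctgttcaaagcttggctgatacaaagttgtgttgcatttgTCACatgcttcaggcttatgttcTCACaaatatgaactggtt
Epb4.1 63-nt exon, chr4:131519034-131519154, minus strand: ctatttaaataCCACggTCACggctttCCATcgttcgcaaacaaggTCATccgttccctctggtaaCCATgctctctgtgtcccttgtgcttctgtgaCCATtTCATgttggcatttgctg
Epb4.1 450-nt exon, chr4:131493338-131493458, minus strand: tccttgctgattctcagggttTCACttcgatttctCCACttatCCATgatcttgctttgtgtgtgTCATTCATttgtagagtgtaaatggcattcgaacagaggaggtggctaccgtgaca
Epb4.1l3 75-nt exon, chr17:69630627-69630747, plus strand: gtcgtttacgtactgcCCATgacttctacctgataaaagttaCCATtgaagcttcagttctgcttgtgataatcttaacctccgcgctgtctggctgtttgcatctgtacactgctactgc
Epb4.1l3 123-nt exon, chr17:69633091-69633211, plus strand: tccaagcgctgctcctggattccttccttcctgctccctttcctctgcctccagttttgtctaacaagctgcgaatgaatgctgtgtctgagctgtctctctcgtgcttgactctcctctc
Epb4.1l3 117-nt exon, chr17:69636950-69637070, plus strand: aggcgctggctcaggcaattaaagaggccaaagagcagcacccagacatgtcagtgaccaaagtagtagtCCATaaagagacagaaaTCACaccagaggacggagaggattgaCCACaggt

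A tetramer of this kind is frequent: 82.9% of all stretches of this length beside cassette exons held at least 1, and the median was 2. The stretch at the 63-nt exon of Epb4.1 held 7, a number reached by 0.8% of stretches. Those at the 36-nt exon of Epb4.1l1 and the 183-nt exon of Ank2 held 6, reached by 2.3% of stretches. The stretch at the 450-nt exon of Epb4.1 held 5 and those at the 66-nt exon of Nrcam and the 99-nt exon of Ank2 held 4, reached by 5.7% and 13.8%. The 3 stretches of Epb4.1l3 held 2, 0 and 3. All 11185 exons counted had at least 1 YCAY in the 400 nt before plus the 400 nt after the exon, with a median of 13 over all and of 15 over the members. A match of letters does not mark a site of binding.

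The 75-nt exon of Epb4.1l3 gave the clearest difference. The study had singled out this exon on the same reads, so this is no independent evidence. Its window held 1.35% to 7.69% of the gene's reads in the 8 MN libraries, on 1 to 17 reads each, and 0.419% to 0.717% in the 4 WSC libraries. The groups did not overlap. Over the libraries this was 49 of 1752 reads in MNs and 96 of 14925 in WSC, or 2.80% and 0.643%, and the log2 difference was 2.13 ± 0.31 (edgeR, adjusted p = 2.8e-09). The reads lay upstream (19 in MNs, 52 in WSC) and downstream (30 and 42), with 0 and 2 in the exon itself. In the 25-nt bin with the most MN reads, from 300 to 325 nt after the exon start, 5 of the 8 MN libraries had reads, 15 in all, and the 4 WSC libraries had 20. With the gene's reads outside exons as the offset the difference was 1.00, still called.

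**Figure D4:**
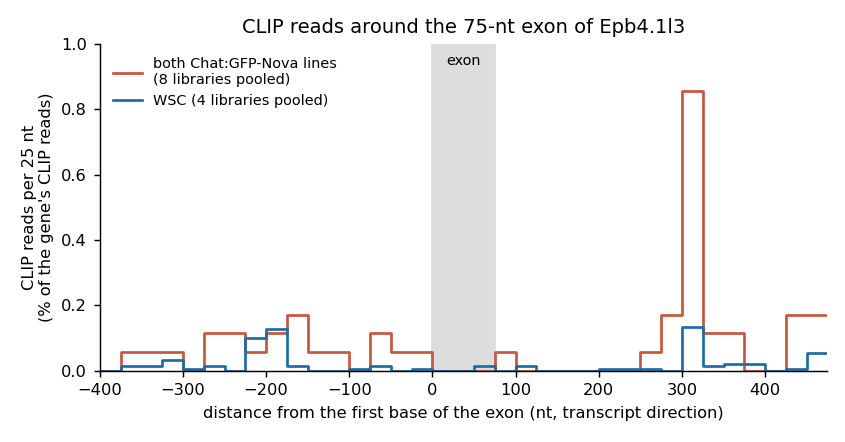
CLIP reads around the 75-nt exon of Epb4.1l3 by distance from the exon start in nt, as percent of all reads of the gene, in bins of 25 nt, with a red line for the 8 MN libraries pooled, a blue line for the 4 WSC libraries pooled and the exon shaded. MN reads stood highest in the bin from 300 to 325 nt, with 15 reads against 20 in WSC out of far more reads on the gene.

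Other windows of Epb4.1l3 went both ways. The window of the 117-nt exon, partly coding at the end of the reading frame, was lower in MNs: 23 reads (1.31% of the gene) against 455 (3.05%), with a log2 difference of -1.22 ± 0.29 (edgeR, adjusted p = 0.00059). Of the 455 WSC reads, 274 lay in the exon, and so did 13 of the 23 MN reads. The window of the 123-nt exon was higher (14 reads against 45, log2 difference 1.40 ± 0.49, edgeR, adjusted p = 0.035). That call was lost without replicate 3 of line 6 (adjusted p = 0.13) and with the libraries of 1 flow cell (adjusted p = 0.11).

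Epb4.1l1 showed the largest called difference, at its 36-nt coding exon. The window held 12 of 827 reads in MNs and 46 of 18862 in WSC, 1.45% and 0.244%, with a log2 difference of 2.55 ± 0.56 (edgeR, adjusted p = 0.00018). All 12 MN reads lay downstream of the exon, and so did 42 of the 46 in WSC. Reads came from 6 of the 8 MN libraries, 1 to 5 in each. The downstream 400 nt held 18 YCAY, at the 99.7th percentile of all exons. The gene itself had fewer CLIP reads in MNs, and the share is relative to that. The window of its 87-nt exon had 0 of 827 reads in MNs and 42 of 18862 in WSC and was not called (adjusted p = 0.19), and no fold is given, since 0 reads of 827 allow a share of up to 0.363%, more than the 0.223% in WSC.

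In Ank2 both coding exons of intermediate inclusion had higher windows. The window of the 99-nt exon had 19 of 3226 reads in MNs and 29 of 24388 in WSC (log2 difference 2.26 ± 0.45, edgeR, adjusted p = 3.1e-05). Downstream of the exon lay 15 of the 19 MN reads and 20 of the 29 WSC reads. The window of the 183-nt exon had 25 reads in MNs and 95 in WSC (0.98 ± 0.38, edgeR, adjusted p = 0.060). Its call was lost under DESeq2 (adjusted p = 0.12), with windows of 200 nt (adjusted p = 0.13), with each line as its own group (adjusted p = 0.11) and without replicate 3 of line 6 (0.14), replicate 4 of line 17 (0.35) or replicate 4 of WSC (0.11). The windows of the 126-nt and the 105-nt exon printed above were not called. In Nrcam the window of the 66-nt exon, which is not annotated, was higher (19 reads against 45, 1.58 ± 0.44, edgeR, adjusted p = 0.0051), with 10 of the 19 MN reads from replicate 4 of line 17, and the call was lost without that library (adjusted p = 0.16).

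In Epb4.1 the 63-nt and the 450-nt exon had higher windows. The first had 24 of 635 reads in MNs and 61 of 3672 in WSC (1.19 ± 0.40, edgeR, adjusted p = 0.027), and the call was lost with the libraries of 1 flow cell (adjusted p = 0.26). The second had 8 reads against 12 (1.84 ± 0.61, adjusted p = 0.044), with 5 of the 8 from replicate 4 of line 17, and the call was lost without it (adjusted p = 0.39) or without replicate 3 of line 6 (adjusted p = 0.11). The tested windows of Ank3, Nfasc and the other exons were not called. No window of Ank1 or Epb4.1l2 was tested, since reads of the window or of the gene were too few. The same held for the 18-nt and 109-nt exons of Nfasc and the 49-nt exon of Epb4.1l1. Those of Ank3 held 4 to 6 MN reads each, and the 237-nt exon of Nfasc held 4.21% of the gene's reads in MNs and 3.92% in WSC.

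**Figure D5:**
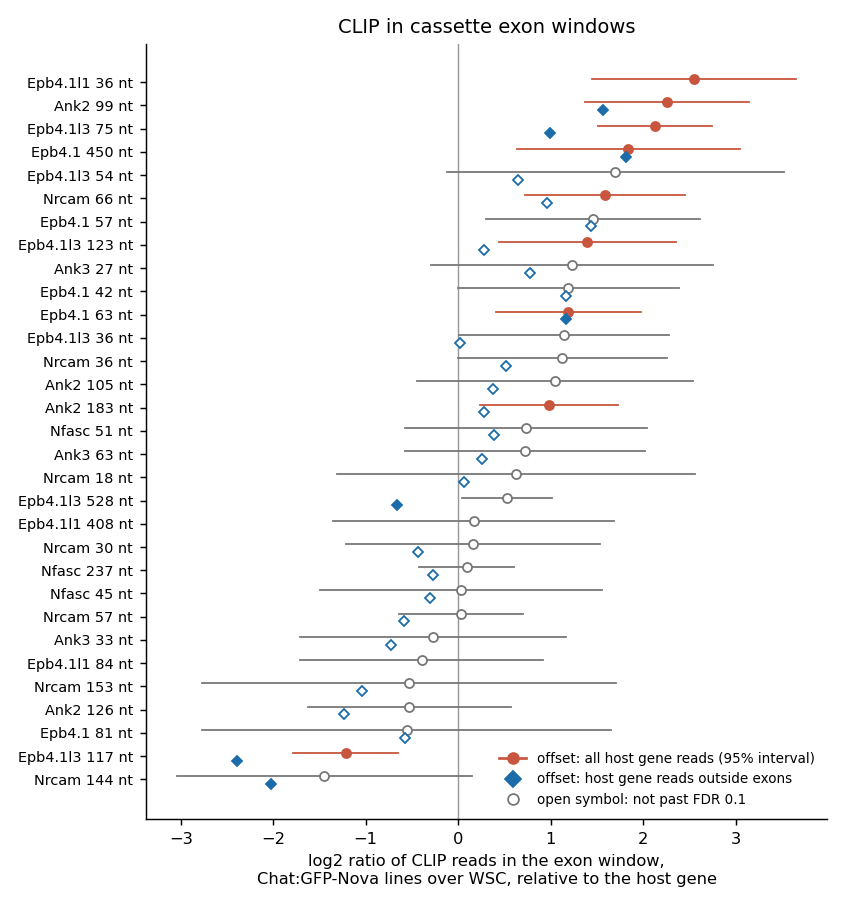
Log2 difference of MNs minus WSC in CLIP reads of each tested exon window relative to the host gene, with circles and bars for the value and 95% interval with all reads of the gene as offset, diamonds for the value with the gene's reads outside exons as offset, and filled symbols for windows past an FDR of 0.1. The called circles run from -1.22 to 2.55, and the 87-nt exon of Epb4.1l1 is left out since no MN read fell in its window.

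With the reads of the gene outside exons as offset, 28 of the windows could be tested and 7 were called, 4 higher and 3 lower, where 5.55% of 757 windows were higher and 12.5% lower. The share of higher among all called windows was 30.7% under this offset and 69.7% with all reads of the gene, and the members' median log2 difference was 0.27. The windows of the 99-nt exon of Ank2 (1.56), the 75-nt exon of Epb4.1l3 (1.00) and both exons of Epb4.1 (1.17 and 1.81) stayed higher. The 117-nt exon of Epb4.1l3 was lower (-2.40), and its 528-nt exon (-0.66) and the 144-nt exon of Nrcam (-2.02) were lower under this offset and not called with all reads. The 66-nt exon of Nrcam, the 183-nt exon of Ank2 and the 123-nt exon of Epb4.1l3 lost their calls, and the 36-nt exon of Epb4.1l1 could not be tested.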

How the data were processed

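NOVA CLIP and whole spinal cord RNA-seq were taken as deposited. For RNA-seq, the authors aligned reads to mm9 with OLego and made gene counts, RPKM and cassette exon counts with Quantas. For CLIP, the authors aligned reads with novoalign and collapsed them to unique reads, deposited as BED lines whose score column was not used. In the tables RPKM equalled counts over exon length and library total in 100% of genes within 0.01%. Here CLIP reads were counted by their centre on the strand of GENCODE vM1 genes (NCBIM37) and tested with edgeR 4.0.16 in R 4.3.3 after TMM scaling and filterByExpr, with FDR thresholds of 0.01 for genes and 0.1 for windows. Windows needed 10 reads over the 12 libraries and 5 host gene reads in each library. Exons were placed for 11782 of 13189 records and 18870 of 19215 genes were matched. DESeq2 1.42.0 was an alternative. Fitting scripts were tested on simulated data.

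Groups were taken from the labels. Mice were pooled in the MN libraries, while the study used the spinal cord of 1 mouse for WSC CLIP. The p-values of edgeR and DESeq2 measure the spread between these libraries. Those of Fisher's exact test compare the read counts of 2 libraries and measure no spread between libraries. The members, exons, lists and tests were chosen with earlier results of these data known. All members and each of their exons with at least 10 junction reads were named, together with the 5 partner genes of the largest called change in a list fixed with them. Identifiers in the read names set replicates 1 and 2 of both lines apart from the other 8 libraries, which shared 1 flow cell. Wilson intervals cover counting error only, and those of edgeR the spread between libraries as well. Some cell type markers are not reported here. Of the columns with per-sample values in the RNA-seq tables, 0 were unused.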

Additional observations from a re-analysis of the deposited data

Results flagged for a closer look

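In 8 of 57 groups of 4 libraries 1 library lay far from the other 3, where chance gives about 1 in 20. On genes these were Cntnap1 in replicate 2 of line 6, lowest at 32.5 CPM (2 reads, the others 43.3 to 44.2), and Epb4.1 in replicate 1 of line 17, lowest at 171 CPM (8 reads, the others 474 to 484). Epb4.1l1 was highest in replicate 2 of line 6 at 877 CPM (54 reads, the others 539.9 to 559), and Epb4.1l3 in replicate 4 of line 6 at 1434 CPM (231 reads, the others 1202 to 1237).

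In the exon windows, as percent of the gene's reads, the 450-nt exon of Epb4.1 was highest in replicate 4 of line 17 at 1.66% (5 reads, the others 0). The 183-nt exon of Ank2 was lowest in WSC replicate 4 at 0.212% (7 reads, the others 0.409% to 0.425%). The 123-nt exon of Epb4.1l3 was highest in replicate 1 of line 17 at 5.13% (2 reads, the others 0 to 0.644%). The 75-nt exon of Epb4.1l3 was lowest in WSC replicate 1 at 0.419% (12 reads, the others 0.676% to 0.717%).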

How the results depend on the processing

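Where a value changed, the cause was not tested unless the setting itself shows it. Genes past 1.5-fold between the RNA-seq libraries numbered 468, 190 on log2(RPKM + 1) and 2115 without a filter on low values. The median inclusion of the members was 74.7%, 92.1% with the authors' inclusion count, which adds reads in the exon body, and 69.4% to 82.2% with 1 library alone. The members' median percentile of level was 90.7 and ran from 90.2 to 91.2 with 1 library alone. Called genes between MNs and WSC numbered 2611, 1903 to 2851 without 1 library, with 7 to 8 members called, and 749 with reads outside exons, with 3 members. Called windows numbered 267, 145 to 265 without 1 library (145 without replicate 4 of line 17), with 6 to 11 members, and 137 with reads outside exons as offset. Without a host gene offset 15 member windows were called, in place of 9, and the median of all windows was 0.42. The share of higher among called genes was 49.2%, and 30.1% with no filter on low counts, where the median of all genes was -0.32. Among called windows it was 69.7%, 82.2% with DESeq2 and 59.1% with windows of 200 nt.

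Log2 differences that changed sign were those of Nfasc (-0.016) and Epb4.1 (-0.13) with reads outside exons, Epb4.1l2 with no filter (-0.14), 3 groups (-0.047), line 6 alone (-0.51) and reads outside exons (-0.35), Epb4.1l3 with no filter (-0.16) and line 17 alone (-0.036), and Ank2 with no filter (-0.0093). With the replicate number as a block, 2285 genes and 209 windows were called, 0 genes between the lines, and Epb4.1l2 was at -0.014. Over the 3 groups together the numbers did not pair the samples. Over 12 pairs of the same number the correlation of deviations was -0.07 to 0.19 (median 0.04), and over 36 other pairs -0.17 to 0.16. Of 12 libraries 2 correlated best with their own number in both other groups. Between the lines alone the same-number correlations were 0.16, 0.05, 0.11 and 0.19, of which 1 is under 0.1. The read names of replicates 1 of both lines shared 1 identifier, and those of replicates 2 of both shared another. Whether replicates 1 shared a run is not shown by that identifier. Between the lines, 190 of 2550 genes had an unadjusted p under 0.05 with the block. The block changed no member call but that of the 183-nt window of Ank2 (adjusted p = 0.138). RLE factors were not run for the offset fit.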
